A study of Mus musculus with 9 samples.

Results

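The Fat, Dachsous and Celsr giant cadherins were followed through exon array signals from embryonic mouse cerebral cortex. Members were the 7 genes Fat1, Fat3, Fat4, Dchs1, Celsr1, Celsr2 and Celsr3, read through the probe sets that the platform table annotates to each of them alone. All 7 were among the 16854 genes tested, and 285 of 1256831 probe sets belonged to them, of which 284 passed the limit on dim signal. The counts were 32 for Fat1, 46 for Fat3 (45 above the limit), 34 for Fat4, 7 for Dchs1, 39 for Celsr1, 80 for Celsr2 and 47 for Celsr3. The rule rests on annotation and uses no measured values, but the members were chosen with earlier results of these data known.

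The study measured RNA in 9 samples of embryonic cerebral cortex at stage E13.5, with 1 array per sample and 3 groups of 3. The groups were controls whose genotype is labelled wild type, Sfpq+/- embryos (titled heterologous knock-out) and Sfpq-/- embryos (titled homologous knock-out). No drug or other treatment was named. Sfpq encodes a nuclear RNA-binding protein that takes part in transcription and splicing. The allele, any promoter driving Cre, the strain, the litters and any pooling are not described by the labels. The p-values therefore measure the spread between these samples. The notes on RNA extraction mention control and Sfpq+/- (written a second time) but not Sfpq-/-, and the groups here follow the titles and the genotype fields.

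Fat and Dachsous proteins are very large cadherins that bind one another across cell borders. The pair of Fat4 as receptor and Dchs1 as ligand is the best known, and it feeds into tissue polarity and the Hippo growth pathway. Celsr proteins are seven-pass cadherins of the core planar cell polarity system, which orients cells within an epithelium together with Frizzled and Van Gogh proteins. In the developing cortex these families are known for roles in the neuroepithelium, in neuronal migration and in the growth of axon tracts.

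Among the members with an entry in the RefSeq promoter table, the windows upstream of the start site are shown for Fat3, the member with the largest fall, and Celsr2, the member that rose. The table (assembly GRCm38.p6) held 5 of the 7 members, without Dchs1 and Celsr1. Each line gives 250 bases before the annotated start, 5′ to 3′ on the minus strand, with CG dinucleotides in capitals.
Fat3, chr9:16502055-16502304: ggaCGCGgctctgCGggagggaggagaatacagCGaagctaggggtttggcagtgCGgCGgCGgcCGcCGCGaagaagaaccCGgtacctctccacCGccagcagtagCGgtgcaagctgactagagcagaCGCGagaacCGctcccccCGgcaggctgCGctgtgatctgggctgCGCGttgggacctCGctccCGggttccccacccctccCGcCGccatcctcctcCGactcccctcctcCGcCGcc
Celsr2, chr3:108415580-108415829: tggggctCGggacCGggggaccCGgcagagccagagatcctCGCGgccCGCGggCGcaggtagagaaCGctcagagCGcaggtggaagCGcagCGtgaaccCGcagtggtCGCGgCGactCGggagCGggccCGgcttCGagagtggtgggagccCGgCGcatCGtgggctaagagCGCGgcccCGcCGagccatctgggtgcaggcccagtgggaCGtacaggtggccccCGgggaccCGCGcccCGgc
Fat3 held 27 CG dinucleotides and Celsr2 held 32, against a median of 6 over 32851 promoter windows of the same length. The count was 17 for Celsr3, 11 for Fat4 and 2 for Fat1. On either strand, neither printed window held the GC box GGGCGG (32.7% of all windows did), the TATA box TATAAA (12.4%), the E-box CAGCTG (13%) or the CCAAT box CCAAT (33.8%). Celsr3 held 2 GC boxes. These matches describe letters in a window and no binding was measured.

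Sfpq was read first, as a check of the labels. Its gene level, the mean log2 signal of its kept probe sets, was 10.33, 10.19 and 9.88 on the control arrays, 10.53, 10.15 and 10.09 on the Sfpq+/- arrays and 8.94, 9.27 and 8.74 on the Sfpq-/- arrays. The Sfpq-/- arrays lay below all others (log2 change against control -1.15, limma adjusted p = 0.000787). The Sfpq+/- arrays overlapped the controls (0.12, limma adjusted p = 0.9), so at this level the heterozygous label was not marked by lower Sfpq signal.

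Array medians lay between 5.648 and 5.697, and the median standard error of a gene's difference between groups was 0.096 on the log2 scale. Over all genes tested, 12.1% passed at a limma adjusted p under 0.05 in Sfpq-/- against control, 5.98% higher and 6.12% lower. Of the cortex markers measured, 2 of 7 fell in Sfpq-/- against control (Lhx2 by 0.34 and Neurod6 by 0.41). Radial glia markers gave no calls among 11, and the log2 of their summed signal ran from 14.74 to 14.84 in controls, 14.81 to 14.89 in Sfpq+/- and 14.73 to 14.93 in Sfpq-/-. Intermediate progenitor markers fell in 3 of 7 (Neurog2 by 0.92, Insm1 by 0.37 and Eomes by 0.23, the last lost in 8 of the 9 leave-one-out fits, each without 1 array), with a summed level of 13.26 to 13.28 in controls, 13.32 to 13.49 in Sfpq+/- and 13.04 to 13.13 in Sfpq-/-, and 1 of 9 postmitotic neuron markers fell (Syt1 by 0.77). Cajal-Retzius markers rose in 5 of 7 (Lhx5 by 1.02, Ebf2 by 0.73, Calb2 by 0.69 and Lhx1 by 0.48, the last lost without Sfpq-/- replicate 1), with a summed level of 11.77 to 11.93 in controls, 11.90 to 11.92 in Sfpq+/- and 12.10 to 12.21 in Sfpq-/-. The Cajal-Retzius markers Reln (-0.04, limma adjusted p = 0.811) and Trp73 (-0.09, limma adjusted p = 0.529) did not rise. Microglial markers rose in 6 of 9 (summed level 11.05 to 11.11 in controls, 11.04 to 11.20 in Sfpq+/- and 11.34 to 11.40 in Sfpq-/-), led by Tyrobp (0.36), Trem2 (0.34), P2ry12 (0.28) and C1qb (0.30), and each of those 6 calls was lost in 3 to 9 of the 9 such fits. The remaining lists gave 1 higher (Gad1, 0.98) and 1 lower (Sst, -0.69) of 10 interneuron genes, 1 higher of 9 choroid plexus and midline genes (Rspo3, 0.32), 1 higher of 7 vascular genes (Rgs5, 0.30), and none of 8 meningeal or 5 erythroid genes. The calls of Sst, Rspo3 and Rgs5 were each lost in 4 or 5 of the 9 fits. The part of these marker levels in the members' results was not tested, and in bulk RNA fewer cells of a type and less RNA per cell cannot be told apart. High Xist signal marked 2 control arrays, 1 Sfpq-/- array and no Sfpq+/- array. With Xist class as a covariate the number of members called was still 3, 0 and 3 in the 3 comparisons.

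In Sfpq-/- against control, Fat3 and Celsr1 fell, Celsr2 rose, and Fat1, Fat4, Dchs1 and Celsr3 did not pass the test. The 3 members called at a limma adjusted p under 0.05 compare with 12.1% of all genes tested (5.98% higher and 6.12% lower). The median log2 change was -0.09 over the 7 members and 0.03 over all genes. The arrays of Fat1, Fat3, Celsr1 and Celsr2 did not overlap between the groups, against 26.9% of all genes. In Sfpq+/- against control none of the 7 was called, and in Sfpq-/- against Sfpq+/- the same 3 genes were called with the same signs. The comparisons that involve Sfpq-/- share its 3 arrays, and those against control share the control arrays, so they are not independent of one another.

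**Figure D1:**
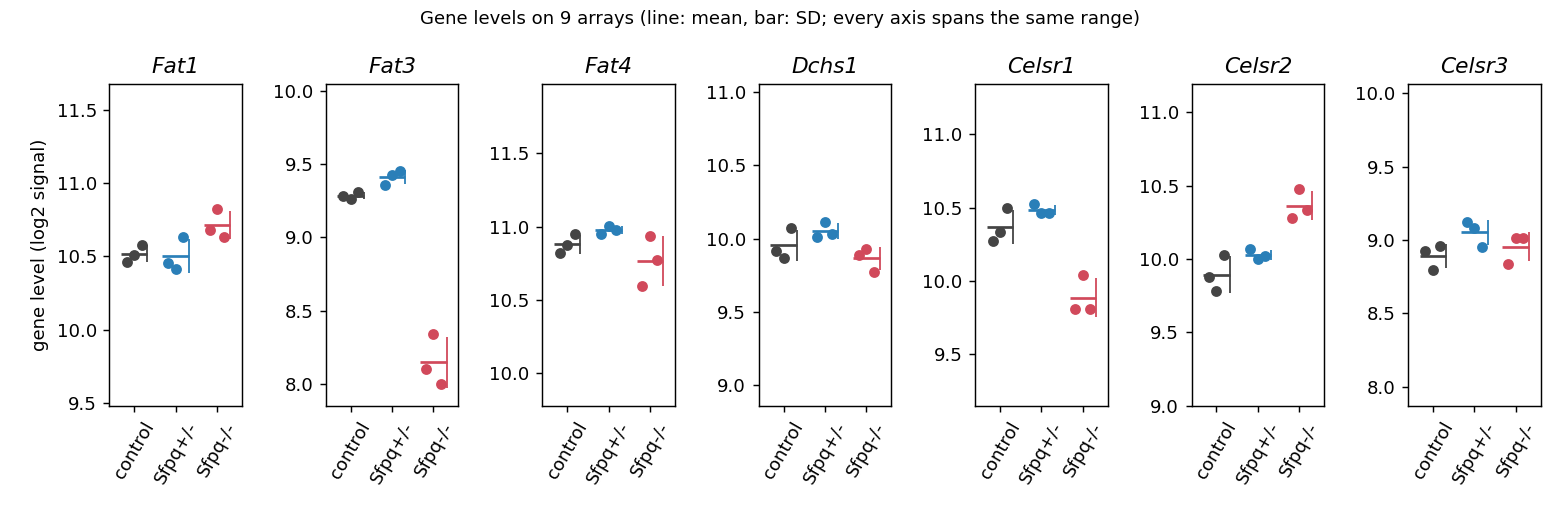
Gene level (log2 signal) of each member on every array, by group, with the group mean (line) and SD (bar); each panel has its own offset but spans the same range. The 3 Sfpq-/- points lay between 8.004 and 8.34 for Fat3, below all controls, and between 10.28 and 10.47 for Celsr2, above all controls.

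Fat3 showed the largest change of the 7. It encodes an atypical Fat cadherin known for shaping neurite and dendrite placement in the retina. Its gene level was 9.28, 9.26 and 9.31 on the control arrays, 9.36, 9.43 and 9.45 on the Sfpq+/- arrays and 8.10, 8.34 and 8.004 on the Sfpq-/- arrays. The Sfpq-/- arrays lay below all 6 others by more than the spread within any group, and every Sfpq+/- array was above every control. Group means were 9.29 ± 0.03 in controls, 9.41 ± 0.05 in Sfpq+/- and 8.15 ± 0.17 in Sfpq-/- (SD, n = 3 each). Fat3 fell 2.20-fold against control (log2 change -1.14, 95% interval -1.33 to -0.94, limma adjusted p = 1.2e-05) and 2.40-fold against Sfpq+/- (-1.26, -1.46 to -1.07, limma adjusted p = 5.27e-06). The step from control to Sfpq+/- was 0.13 (-0.07 to 0.32, limma adjusted p = 0.886), which did not pass. With the median in place of the mean of the probe sets the change against control was -1.67, and the probe sets of Fat3 did not move alike.

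Single probe sets, each covering a short stretch of the transcript, were therefore read 1 by 1. Over all members, 35 of 284 kept probe sets were called in Sfpq-/- against control, 32 lower and 3 higher, against 1.75% of all kept probe sets (1.19% lower and 0.561% higher). Fat3 held 31 of the 32 that fell. Its changes ran from -1.96 to 0.49 with a median of -1.55, and the spread between its probe sets was 0.84 (SD). There were 24 probe sets below -1.5, 5 from -1.5 to -1, 5 from -1 to -0.5, 3 from -0.5 to 0, and 8 above 0.

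**Figure D2:**
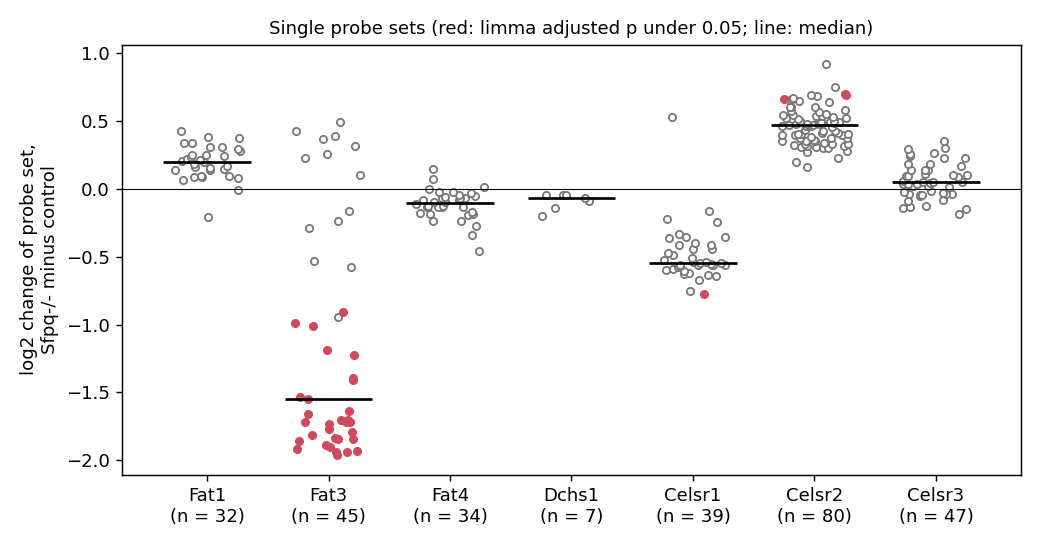
Log2 change of every kept probe set in Sfpq-/- minus control, by gene, with called probe sets in red and the gene's median as a line. Fat3 spans -1.96 to 0.49 with most sets below -1.5, while all 80 Celsr2 sets lie above 0.

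The Fat3 probe set with the smallest adjusted p, 4588620, read 10.12, 10.07 and 10.27 in controls, 10.22, 10.22 and 10.31 in Sfpq+/- and 8.31, 8.64 and 8.31 in Sfpq-/-. The next, 4349269, read 9.47, 9.45 and 9.51 in controls, 9.56, 9.61 and 9.91 in Sfpq+/- and 7.71, 7.95 and 7.64 in Sfpq-/-. Both sets separated the Sfpq-/- arrays from the other 6 by more than 1 log2 unit, with changes against control of -1.73 (limma adjusted p = 0.000484) and -1.72 (limma adjusted p = 0.000606). Across the 31 sets that fell, control means ran from 7.73 to 11.35 with a median of 9.47, and Sfpq-/- means from 5.88 to 9.41 with a median of 7.76. The sets that fell thus covered a wide range of signal, from 7.73 upward.

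A second class of Fat3 probe sets did not fall. In 8 sets the change against control was above 0, from 0.11 to 0.49 with a median of 0.35, and none of these 8 changes passed the test. Of all 45 kept Fat3 sets, 5 had all Sfpq-/- arrays above the controls, where 7.65% of all kept probe sets did so. Their control means had a median of 10.90 (range 5.87 to 11.53), and in Sfpq+/- their changes ran from 0.05 to 0.34. Set 4493481, chosen after its values were seen, read 10.54, 10.43 and 10.57 in controls, 10.61, 10.73 and 10.70 in Sfpq+/- and 10.97, 10.93 and 10.59 in Sfpq-/-. All 3 Sfpq-/- readings were above the highest control reading (change 0.32, limma adjusted p = 0.472), on the same arrays on which the gene mean was lowest. Another such set, 5568824, had the largest rise in value of the gene, 0.49 (limma adjusted p = 0.374). A further 6 sets, with changes from -0.95 to -0.16, were below 0 but did not pass. Their range overlapped that of the sets called lower (-1.96 to -0.91). In 2 of these 6 all Sfpq-/- arrays were below the controls.

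**Figure D3:**
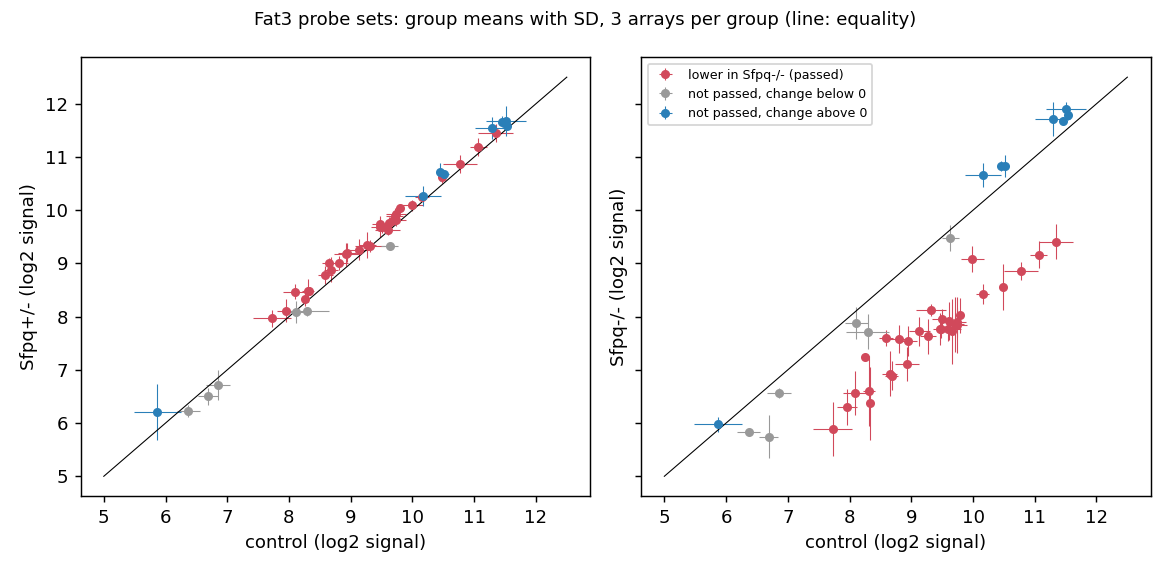
Mean log2 signal of each kept Fat3 probe set in control (horizontal axis) against Sfpq+/- (left) and Sfpq-/- (right), with SD over 3 arrays and the line of equality. In the right panel 31 sets (red) lie below the line and 8 (blue) lie above it, while in the left panel all lie near it.

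Whether a probe set changed unlike its gene was tested on its deviation from the mean of the gene's kept probe sets in the same array. Against control, 16 member probe sets deviated, all of them in Fat3, 8 upward and 8 downward, where 0.926% of the 248590 probe sets tested did (0.483% upward and 0.444% downward). The 8 sets with a change above 0 included 7 that deviated upward; set 4493481 did so by 1.46 (SE 0.10, limma adjusted p = 0.000803) and set 5568824 by 1.63 (limma adjusted p = 0.00464). Those 7 were called whichever of the 9 arrays was left out. The eighth, 4448294, was dim (control mean 5.87). The other upward deviation was in 1 of the 6 sets whose change below 0 did not pass. The downward calls depended on single arrays: 8 were made without Sfpq-/- replicate 2, and 0 to 2 without any other array. A deviation is relative to a mean that itself fell, so an upward deviation marks a set that did not follow the gene and not a rise in signal. The gene mean changed by -1.14, so sets picked for a change above 0 had to deviate upward. Their calls are thus no separate evidence for a second class. That mean included the sets that did not fall and lay above the median change (-1.55), so sets that fell tended to lie below it. The downward calls are thus not shown to be a separate group. Against Sfpq+/- the deviations numbered 10 upward and 8 downward, again all in Fat3 (0.839% of all sets, 0.445% upward and 0.394% downward). These calls depended on single arrays too: without Sfpq+/- replicate 1 or 3 or Sfpq-/- replicate 1 there were 5 upward and 0 downward, without Sfpq+/- replicate 2 there were 7 and 0, and without control replicate 2 there were 9 and 2. The order of the probe sets along Fat3 was not analysed here, so where these classes of sets lie in the gene cannot be stated.

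Fat1, a Fat cadherin of apical junctions and cell protrusions, read 10.46, 10.51 and 10.58 in controls, 10.46, 10.42 and 10.63 in Sfpq+/- and 10.68, 10.82 and 10.63 in Sfpq-/-. All Sfpq-/- arrays were above all controls, but the lowest of them equalled the highest Sfpq+/- array to 2 decimals. The change against control was 0.20 (95% interval 0.01 to 0.38), with an unadjusted p of 0.0414 and a limma adjusted p of 0.184, so it did not pass. Of its 32 probe sets 30 were above 0, with a median of 0.20 and a range from -0.21 (4619155) to 0.43 (5430447), and none was called. Against Sfpq+/- the change was 0.21 (0.02 to 0.40, limma adjusted p = 0.16).

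Fat4, the receptor for Dchs1, read 10.82, 10.88 and 10.95 in controls, 10.95, 11.003 and 10.97 in Sfpq+/- and 10.60, 10.93 and 10.77 in Sfpq-/-. The Sfpq-/- arrays were the most spread of the 3 groups (SD 0.17 against 0.06 and 0.03) and overlapped the controls. The change was -0.11 against control (-0.31 to 0.08, limma adjusted p = 0.506) and -0.21 against Sfpq+/- (-0.41 to -0.01, limma adjusted p = 0.193). Neither passed, but the second did without Sfpq-/- replicate 2 (-0.29, limma adjusted p = 0.0424). With array weights estimated gene by gene, a setting chosen after seeing the data, both passed (-0.23, adjusted p = 0.0328, and -0.33, adjusted p = 0.00805, in limma). Those weights were 2.99 for Sfpq-/- replicate 1, where Fat4 was lowest, and 0.44 and 0.36 for replicates 2 and 3. Without Sfpq-/- replicate 1 the unweighted change against control was -0.03 (limma adjusted p = 0.918). Of 34 probe sets, 30 were below 0 against control, from -0.46 (4542738) to 0.15 (5284853), and all 34 were below 0 against Sfpq+/-, with none called in either.

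Dchs1, the ligand, read 9.92, 9.87 and 10.08 in controls, 10.01, 10.11 and 10.03 in Sfpq+/- and 9.89, 9.93 and 9.78 in Sfpq-/-. Its Sfpq-/- arrays overlapped the controls and lay below all Sfpq+/- arrays. The change was -0.09 against control (-0.27 to 0.09, limma adjusted p = 0.584) and -0.19 against Sfpq+/- (-0.36 to -0.01, limma adjusted p = 0.197). All 7 probe sets were below 0 against control, between -0.20 (5507723) and -0.04 (5052266). Set against each other within an array, Fat4 minus Dchs1 was 0.93 ± 0.07 in controls, 0.92 ± 0.03 in Sfpq+/- and 0.90 ± 0.17 in Sfpq-/- (SD, n = 3). The difference between Sfpq-/- and control was -0.03 (exact two-sided permutation p = 0.8). The smallest p that 3 arrays against 3 can give is 0.1, so receptor and ligand were not shown to change either alike or unequally.

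**Figure D4:**
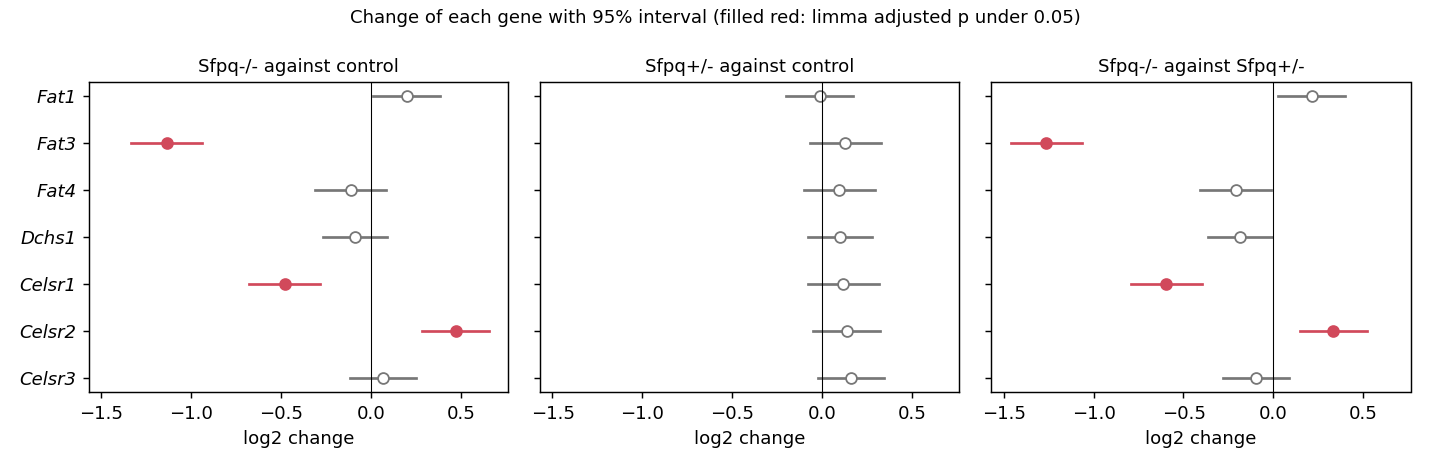
Log2 change of each member with its 95% interval in the 3 comparisons, with genes that passed in red. Fat3, Celsr1 and Celsr2 are filled in both comparisons of Sfpq-/-, and no member is filled in Sfpq+/- against control, where 6 of 7 lie above 0.

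The 3 Celsr genes went different ways. Celsr1, known for planar polarity in the neural tube and in epithelia, read 10.27, 10.33 and 10.49 in controls, 10.52, 10.46 and 10.46 in Sfpq+/- and 9.81, 10.04 and 9.81 in Sfpq-/-. The Sfpq-/- arrays were below all 6 others. Celsr1 fell 1.39-fold against control (-0.48, SE 0.09, -0.68 to -0.28, limma adjusted p = 0.00454) and 1.51-fold against Sfpq+/- (-0.60, -0.79 to -0.40, limma adjusted p = 0.00103). In Sfpq+/- against control its change was 0.12 (-0.08 to 0.31, limma adjusted p = 0.886).

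The fall of Celsr1 was more even over its probe sets than that of Fat3. The SD between probe sets was 0.21 for Celsr1 and 0.84 for Fat3, where 37 of 45 sets were below 0. Against control 38 of 39 were below 0, with a median of -0.54, and in 32 the Sfpq-/- arrays were all below the controls (7.4% of all kept probe sets). Set 5611707 passed alone (-0.77, limma adjusted p = 0.0398). It read 11.26, 11.42 and 11.59 in controls, 11.30, 11.37 and 11.40 in Sfpq+/- and 10.53, 10.89 and 10.53 in Sfpq-/-. When 1 array was left out, 2 sets passed without Sfpq-/- replicate 2 and none did in the other 8 fits. Against Sfpq+/- all 39 were below 0, 37 without overlap (8.97% of all) and 7 called, where 1.93% of all kept probe sets were called and 1.5% were called lower. Of those 7, 4 were kept without Sfpq-/- replicate 2, 1 each without control replicate 1 or 3, and 0 without any of the other 6 arrays. No Celsr1 probe set deviated from its gene mean. The 1 set above 0, 4842881, was dim (control mean 6.43, change 0.53) and missed that test (deviation 1.01, limma adjusted p = 0.0583).

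Celsr2, which with Celsr3 is known for the cilia of ependymal cells and for neurite growth, read 9.88, 9.78 and 10.03 in controls, 10.07, 9.9996 and 10.02 in Sfpq+/- and 10.28, 10.47 and 10.33 in Sfpq-/-. The order was control, Sfpq+/-, Sfpq-/-. The first step overlapped (0.14, -0.05 to 0.32, limma adjusted p = 0.886), and the Sfpq-/- arrays were above all others. Celsr2 rose 1.38-fold against control (0.47, SE 0.08, 0.28 to 0.66, limma adjusted p = 0.00378) and 1.26-fold against Sfpq+/- (0.33, 0.15 to 0.52, limma adjusted p = 0.0258). The second call was lost with the median of the probe sets (limma adjusted p = 0.08). It was also lost without Sfpq+/- replicate 1 (0.0623), 2 (0.0946) or 3 (0.0788) and without Sfpq-/- replicate 2 (0.0663).

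All 80 Celsr2 probe sets were above 0 in Sfpq-/- against control, from 0.17 to 0.92 with a median of 0.47. In 64 of the 80 the Sfpq-/- arrays were all above the controls, as for 7.65% of all kept probe sets. Probe sets of 1 gene share the same RNA on the same arrays, so these counts describe how evenly the gene moved and are not independent observations. Set 5387071 read 10.32, 10.32 and 10.34 in controls, 10.51, 10.54 and 10.55 in Sfpq+/- and 10.88, 11.16 and 10.93 in Sfpq-/-, and the 3 groups did not overlap. It passed (0.66, limma adjusted p = 0.0339), as did 5111495 (0.69, limma adjusted p = 0.0365) and 4377542 (0.70, limma adjusted p = 0.0443). None of the 3 calls was kept when any 1 of the 9 arrays was left out. Against Sfpq+/- all 80 were again above 0 and none was called.

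Celsr3, known for the guidance of large axon tracts, read 8.92, 8.80 and 8.96 in controls, 9.12, 9.08 and 8.95 in Sfpq+/- and 8.84, 9.01 and 9.01 in Sfpq-/-. The 3 groups overlapped. Its change was 0.06 against control (-0.12 to 0.25, limma adjusted p = 0.73), -0.10 in Sfpq-/- against Sfpq+/- (-0.28 to 0.09, limma adjusted p = 0.554), and 0.16 in Sfpq+/- against control (-0.02 to 0.34, limma adjusted p = 0.886). Its 47 probe sets ran from -0.19 (4941359) to 0.35 (5577936) against control, with 31 above 0 and none called. Within an array, Celsr3 minus Celsr1 was -1.48 ± 0.11 in controls, -1.43 ± 0.07 in Sfpq+/- and -0.93 ± 0.12 in Sfpq-/- (SD, n = 3). The Sfpq-/- differences did not overlap those of either other group. The shift was 0.54 against control and 0.50 against Sfpq+/-, each at the smallest p the exact permutation test allows (two-sided 0.1, 0.3 after adjustment over the 6 pair comparisons), so it could not pass 0.05.

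In Sfpq+/- against control, no member, no member probe set and no deviation was called, where 0% of all genes and probe sets were called in limma. No member had an unadjusted p under 0.05, against 715 of the 16854 genes. The changes ran from -0.02 in Fat1 to 0.16 in Celsr3, with 6 of 7 above 0 and a median of 0.12 against 0.03 over all genes. Fat3 and Fat4 arrays were all above the controls, as for 8.52% of genes. The upper ends of the intervals lay between 0.17 (Fat1) and 0.34 (Celsr3), so rises up to these sizes could not be told from no change with 3 arrays a group. In Sfpq-/- against Sfpq+/-, 3 of 7 members were called, where 11.8% of genes were (4.58% higher and 7.25% lower).

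The members differ in the length of the genome they span. By RefSeq assembly GRCm38.p6, matched on symbol for 16707 of the genes tested, Fat3 spans 592.5 kb, Celsr1 135.5, Fat4 127.3, Fat1 119.2, Dchs1 35.4, Celsr3 27.0 and Celsr2 25.2 kb. Among the 205 genes of at least 500 kb, where Fat3 lies, the median change in Sfpq-/- against control was -0.45, and 58% were called lower. Among the 1336 genes of 100 to 200 kb, which hold Fat1, Fat4 and Celsr1, 16.2% were lower and 7.49% higher. Among the 12182 genes under 50 kb, 2.31% were lower and 5.95% higher. The part of span in the members' changes was not tested.

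The partners of these cadherins were read from 3 lists. Over all genes tested, 12.1% were called in Sfpq-/- against control (5.98% higher and 6.12% lower). Against Sfpq+/- the share was 11.8% (4.58% higher and 7.25% lower). The counts of each list stand beside these shares, and no list was tested as a set. Of 24 core planar cell polarity genes, 1 rose and 2 fell in Sfpq-/- against control, with a median of 0.03, equal to that of all genes to 2 decimals. Ankrd6, the vertebrate Diego homologue also named Diversin, fell most, from 8.56 ± 0.02 to 7.18 ± 0.06 (SD, n = 3; log2 change -1.37, limma adjusted p = 1.1e-06), and by 1.45 against Sfpq+/-. Wdpcp, a planar polarity effector of ciliogenesis, fell by 0.32 (limma adjusted p = 0.0354). Fzd3, the Frizzled receptor that acts with Celsr3 in axon tracts, rose by 0.28 (limma adjusted p = 0.036). The call of Wdpcp was kept in a single one of the 9 leave-one-out fits, that without Sfpq-/- replicate 2. The call of Fzd3 was lost without control replicate 2 or 3, Sfpq+/- replicate 2, or Sfpq-/- replicate 1 or 2. Vangl1, a Van Gogh protein, had a change of 0.29 and did not pass (limma adjusted p = 0.0628). Against Sfpq+/- the list gave 0 higher and 3 lower, namely Ankrd6, Wdpcp (-0.38, lost without Sfpq+/- replicate 2) and the formin Daam1 (-0.34, lost without Sfpq+/- replicate 1 or 2 or Sfpq-/- replicate 1).

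Of 36 Fat and Dachsous partners and Hippo pathway genes 35 were measured, without Stk3. In Sfpq-/- against control 3 rose and 2 fell, where 12.1% of all genes were called, and the median was 0.05. Amot and Amotl2, angiomotins that bind the Hippo effector Yap1, rose by 0.67 (limma adjusted p = 0.000427) and 0.36 (limma adjusted p = 0.00806). Ptpn14, a phosphatase that also binds Yap1, rose by 0.39 (limma adjusted p = 0.0147), a call lost without control replicate 1 (0.0576). Wwc1, the upstream scaffold Kibra, fell by 0.43 (limma adjusted p = 0.00528), and Ccn1, a known target gene of Yap1, fell by 0.47 (limma adjusted p = 0.00754). Ccn2 and Ankrd1, listed beside Ccn1, were not called, and Yap1 activity was not measured. Against Sfpq+/- 3 were higher (Amot 0.52, Ptpn14 0.34, Amotl2 0.26) and 4 lower (Wwc1 -0.61, Ccn1 -0.40, the kinase gene Taok3 -0.36, and Wwtr1, which encodes Taz, -0.26). Leaving out 1 array ended the calls of Amotl2 and Wwtr1 in 8 of 9 fits each (kept without Sfpq-/- replicate 3 and 2 respectively). It ended those of Ptpn14 without Sfpq+/- or Sfpq-/- replicate 1 or 2, and of Ccn1 without Sfpq+/- replicate 1 or 2 or Sfpq-/- replicate 2.

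Among 7 other large cadherins 6 were measured, without Dchs2. Pcdh15, the tip-link cadherin of hair cells, fell from 7.18 ± 0.02 to 6.35 ± 0.12 (SD, n = 3; -0.83, limma adjusted p = 4.22e-05), and Cdhr1, a photoreceptor cadherin, rose by 0.42 (limma adjusted p = 0.008). Fat2 (-0.09, limma adjusted p = 0.702) and Cdh23 (-0.05, limma adjusted p = 0.811) did not pass. The list median was -0.02. Against Sfpq+/- Pcdh15 was again lower (-0.75) and Cdhr1 higher (0.50). No gene of the 3 lists was called in Sfpq+/- against control, where 1 of them, in the Hippo list, had an unadjusted p under 0.05.

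**Figure D5:**
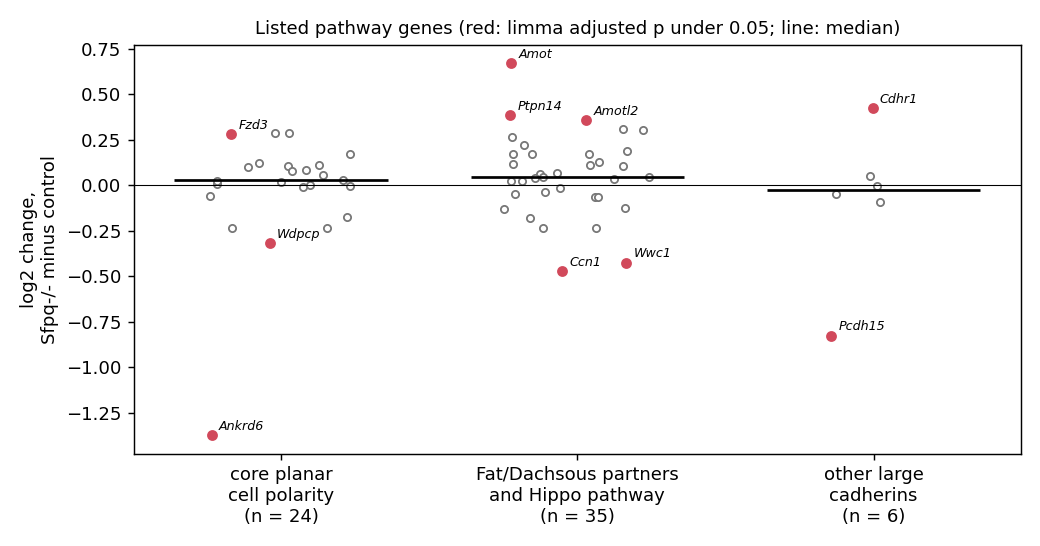
Log2 change in Sfpq-/- minus control of each measured gene in the 3 lists, with called genes in red and the list median as a line. Ankrd6 and Pcdh15 lie far below their lists, and the medians lie between -0.02 and 0.05.

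As a description, the genes whose levels followed each member most closely over the 9 arrays were listed by Pearson's r, where the arrays share 3 groups and r reflects the group means as well as the arrays. They were Sema5a and Plce1 for Fat3 (both 0.996) and Sorl1 (0.997) and Sncaip (0.991) for Celsr1. For Celsr2 they were Gpr26 (0.986) and Bcor (0.972), and for Fat1 Knop1 (0.973) and Tnfrsf19 (0.969). The values were lower for Fat4 with Bmpr1b (0.957) and Mroh1 (0.927), Celsr3 with Fry (0.930) and Pde1b (0.927), and Dchs1 with Slc45a4 (0.911) and Serinc2 (0.902).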

How the data were processed

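The authors deposited log2 signals per probe set for 9 Affymetrix Mouse Exon 1.0 ST arrays, and the submitters' processing notes name Affymetrix Expression Console 1.2.0.20. How background was corrected and signals normalized is not stated in the labels or headers; no step was added. Groups came from the sample titles, which the genotype fields match. Probe sets were named from the platform table: 318760 had 1 symbol, 6684 several (not used) and 931387 none. Probe sets with a mean above the median of all (5.64) were kept (628415). A gene's level averaged its kept probe sets, with 3 as the minimum, for 16854 genes.

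All 9 arrays entered 1 limma model (version 3.58.1, R 4.3.3; lmFit, eBayes) per gene, per probe set, and per deviation of a probe set from its gene mean, with Benjamini-Hochberg adjustment over the whole table and a threshold of 0.05. The deviation test replaced diffSplice, which assumes 1 variance per gene. Member pairs were compared within arrays by exact permutation. The scripts were tested on simulated data. The members, lists and tests were chosen with earlier results of these data known.

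The text names all members, probe sets that passed (at most 4 per gene, otherwise the 2 with the smallest adjusted p in each direction, or the lowest and highest change where none passed), the pathway genes that passed or ranked in the first 4 of a list, the marker genes that passed (the first 4 where more did), and 2 genes per member with the highest correlation, clone-number names left out. Lists fall short of their full length where a gene was not measured. Beyond that rule the text names pathway genes called in Sfpq-/- against Sfpq+/-, the pathway genes Ccn2 and Ankrd1, and the markers Reln and Trp73. It also names Fat3 sets 4493481, 5568824 and 4448294 and Celsr1 set 4842881. All of these were chosen after their values were seen.

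The alternatives were another dim limit (the 60th percentile), no dim limit, the median of probe sets, quantile normalization, only the 6 arrays of the groups compared, a trended robust prior, Xist class, a replicate block, array weights, and leaving out each array.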

Additional observations from a re-analysis of the deposited data

How the results depend on the processing

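Among the member genes, 3 were called in Sfpq-/- against control in each fit that left out 1 array and 3 or 4 under the other alternatives; against Sfpq+/- the count was 2 or 3 without 1 array and 2 to 4 otherwise, and no setting called a member in Sfpq+/- against control. Member probe sets called numbered 28 to 33 without 1 array against control (30 to 43 otherwise) and 30 to 37 against Sfpq+/- (32 to 41 otherwise). Deviations ranged from 7 to 18 against control and from 5 to 19 against Sfpq+/- without 1 array, and the pathway genes called from 8 to 13 and from 6 to 13. With array weights estimated gene by gene, chosen after seeing the data because the planned estimate did not converge, the pathway genes called were 23 and 20 in place of 10 and 12; the cause was not tested. Signs turned for values near 0. Fat4 minus Dchs1 was 0.0113 with the median of probe sets (Sfpq-/- against Sfpq+/-) and 0.000438 with quantile normalization (Sfpq+/- against control), and without 1 array it ran from -0.0764 to 0.0724 against control, from -0.0309 to 0.0369 in Sfpq+/- against control and from -0.0731 to 0.0758 against Sfpq+/-. In Sfpq+/- against control, Fat1 ran from -0.0817 to 0.0282 without 1 array and Fat4 was -0.0235 with Xist class as a covariate. Whether replicate numbers pair the arrays is not stated by the labels, and the main fit did not pair them. After each gene's group mean was subtracted, same-number pairs of arrays correlated from -0.06 to 0.57, with 5 of 9 above 0.1. By this measure, 5 of the 9 arrays correlated best, among arrays of the other groups, with an array of their own number. A partial pairing was therefore not excluded. With the replicate block, 3, 0 and 3 member genes, 30, 0 and 32 member probe sets, 15, 0 and 17 deviations and 12, 0 and 13 pathway genes were called. With 3 arrays a group, and a filter that passed or dropped a probe set on its mean over all arrays, dim probe sets limit what could be seen.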
